A study of Homo sapiens with 4 samples.

Results

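A cassette exon is an internal exon that is either kept in the mature mRNA or skipped together with its flanking introns. When its length is not a multiple of 3, the 2 forms of the transcript are read in different frames after the exon, so that a choice between inclusion and skipping is often a choice between 2 protein ends, or between a full protein and a transcript with an early stop codon. Transcripts whose stop codon lies well before the last exon junction are known substrates of nonsense-mediated decay, the pathway that degrades them in the cytoplasm. Frame-shifting exons therefore serve in many genes as switches of protein level as well as of protein sequence. The RBFOX proteins are splicing factors that bind UGCAUG. They are known to promote inclusion from sites in the downstream intron and to promote skipping from sites in the upstream intron.

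The frame-shifting alternative cassette exons were defined as exons of at least 28 nt and under 500 nt whose length is not a multiple of 3, with at least 100 counts in the SCRM libraries together and an SCRM inclusion level between 0.1 and 0.9. The rule held for 2468 exons in 1843 genes, of 57729 distinct cassette exons and 84930 skipped exon events in all. The values come from RNA-seq of U87MG, a glioblastoma cell line, lipofected with oligonucleotides at 2.5 µM. RBFOXi is a 2′-O-methyl RNA decoy with repeats of the RBFOX binding motif (2 libraries, replicate 1 labelled as carrying Cy5, and no dye named for the other 3 libraries), and SCRM is a control oligonucleotide without it (2 libraries). All 4 libraries are of 1 cell line. The labels call these cells likely glioblastoma. Of the glial and mesenchymal markers, VIM, CD44, TNC, SPARC, FN1 and NES had counts over skipped exon events. GFAP, S100B and SOX2 had no event in the table. CD68 of the blood markers, KRT8 of the epithelial and SNAP25 of the neuronal markers also had counts. Those of CD68 were 174058 to 273357 per library, above those of NES at 179 to 432. The other markers of these 3 lists had no event. Such counts do not tell the cell type.

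The inclusion level PSI (proportion spliced in, 0 for full skipping and 1 for full inclusion) was computed from the deposited counts of inclusion and skipping reads, each divided by the effective length of its form. Delta PSI is the mean of the RBFOXi libraries minus the mean of the SCRM libraries. The SCRM values chose the exons, so SCRM levels are given as a description, and the RBFOXi counts entered only where several events held an exon, of which the one with most counts over the 4 libraries was kept. Just inside the lower bound lay an NAP1L4 exon of 38 nt and an SEC13 exon of 178 nt, with SCRM PSI of 0.101 in each, and just outside it exons of C5orf28 and KIAA0586 with 0.0999 in each. At the upper bound, exons of C9orf3 and ERCC6 lay inside with 0.89996 and 0.89993, and exons of FOXP1 and AFG3L1P outside with 0.90028 and 0.90048.

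SCRM replicate 1 stood apart. Its counts over all skipped exon events came to 114415530, against 124782728 to 136097319 in the other libraries. A frame-shifting exon had a median of 127 counts in it, against 195, 237.5 and 239 in RBFOXi replicate 1, RBFOXi replicate 2 and SCRM replicate 2. Its median PSI over these exons was 0.725, against 0.752 to 0.760 in the others. Results are therefore also given without it. Of the 2468 exons, 27 did not reach 5 counts in every library, a mean of 20 counts per library or 4 counts of each form, 21 of them with under 5 counts in SCRM replicate 1. The other 2441 were tested.

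The lengths had a median of 124 nt, with quartiles of 89 and 166. The length left a remainder of 1 after division by 3 in 1184 exons and of 2 in 1284. Exons of at most 50 nt numbered 128. GT-AG splice sites flanked 98.2% of the exons. Exons chosen by the same rule but with a length that is a multiple of 3 (frame-preserving exons, 2150) had a median length of 111 nt, and 98.2% of them had GT-AG sites. The introns around frame-shifting exons were of median length 2884 nt upstream and 2708 nt downstream, against 2465 and 2403 nt. A stop codon was present in every frame of 458 frame-shifting exons (18.6%), against 11.2% of the frame-preserving exons. No test was made of these differences.

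Most genes held 1 such exon (1388 genes), and 455 held 2 or more. SLC9A5, a sodium/proton exchanger, held 8. The exons are not independent of each other. For 420, the skipping junction is the same as for another of the exons, so that skipping reads are shared, and 205 overlap another of the exons.

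The sequences of 3 pairs of neighbouring frame-shifting exons of equal length are shown first, since in such a pair either exon restores the frame that skipping both would break. They are from hg19, on the strand of the gene, 5′ to 3′, and capitals mark the bases at which the 2 exons of a pair differ. SNAP25 encodes a SNARE protein of synaptic vesicle fusion, CACNA1A the pore of a P/Q-type calcium channel, and U2AF1 the small subunit of the factor that recognises the 3′ splice site. The positions are chr20:10273530-10273647 and chr20:10273809-10273926 on the plus strand for SNAP25, chr19:13339513-13339609 and chr19:13338245-13338341 on the minus strand for CACNA1A, and chr21:44521476-44521542 and chr21:44520563-44520629 on the minus strand for U2AF1.
SNAP25 first exon: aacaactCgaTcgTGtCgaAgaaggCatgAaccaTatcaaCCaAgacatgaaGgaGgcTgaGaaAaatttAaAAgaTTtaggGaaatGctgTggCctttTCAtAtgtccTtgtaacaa
SNAP25 second exon: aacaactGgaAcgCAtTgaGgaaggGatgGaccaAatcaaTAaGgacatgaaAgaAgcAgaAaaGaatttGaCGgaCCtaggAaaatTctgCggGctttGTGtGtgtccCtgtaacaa
CACNA1A first exon: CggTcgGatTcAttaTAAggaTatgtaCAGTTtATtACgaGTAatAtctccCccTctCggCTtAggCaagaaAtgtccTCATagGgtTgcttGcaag
CACNA1A second exon: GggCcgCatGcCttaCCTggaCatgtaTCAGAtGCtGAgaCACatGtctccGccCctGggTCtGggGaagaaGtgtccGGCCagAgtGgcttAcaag
U2AF1 first exon: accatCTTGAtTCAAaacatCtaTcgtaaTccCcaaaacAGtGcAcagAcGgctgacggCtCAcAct
U2AF1 second exon: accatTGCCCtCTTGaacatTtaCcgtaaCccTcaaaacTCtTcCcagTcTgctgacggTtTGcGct

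The label was checked against the annotation. Each exon was matched by both ends to GENCODE 44 transcripts on hg19, and the other form was read by removing or inserting the exon in the reference coding transcript. An early stop was a stop codon more than 55 nt before the last exon junction. In 1591 exons (64.5%) both forms could be read, and in 1216 of these (76.4%) one of the forms had an early stop. Among frame-preserving exons, the same reading gave an early stop for 75 of 1728 (4.34%). For the rest, the name frame-shifting does not apply or could not be checked. Of these exons, 366 (14.8%) lay in the 5′ UTR of coding transcripts. Another 226 (9.16%) held the start or stop codon or lay in the coding part of incomplete transcripts only. There was no complete coding transcript to read for 246 (9.97%), and 25 had no match.

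Skipping gave the early stop in 999 exons (40.5%). In this reading the exon is needed for the full protein unless a partner exon restores the frame. Both CACNA1A exons and the second exons of SNAP25 and U2AF1 are in this class and have such a partner. Over the 999 exons, SCRM PSI had a median of 0.821, and 91 of them (9.11%) lay under 0.5. The annotated protein had a median of 508 residues, and the reading of the skipped form ended after a median of 129. In a further 308 exons, skipping moved the frame so late that the stop fell in the last exon or within 55 nt of the last junction, which changes the C-terminal end of the protein.

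Inclusion gave the early stop in 217 exons (8.79%), as it does for the exons known as poison exons. The class is wider than that. Where the reference transcript held 1 exon of a pair, adding the other exon also gave an early stop. The first exons of U2AF1 and SNAP25 and the second of CALU are in the class for this reason. Over the 217 exons, SCRM PSI had a median of 0.256, and 159 (73.3%) lay under 0.5. In 158 of the 217 the stop codon lay within the exon itself. A further 67 exons changed the C-terminal end when included, with a median SCRM PSI of 0.242. Exons of the 5′ UTR lay between, with a median of 0.440. The reads do not show how much of a form was degraded, so PSI is the share among the transcripts present in the RNA. In such bulk RNA, fewer cells of a type and less RNA per cell cannot be told apart.

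**Figure D1:**
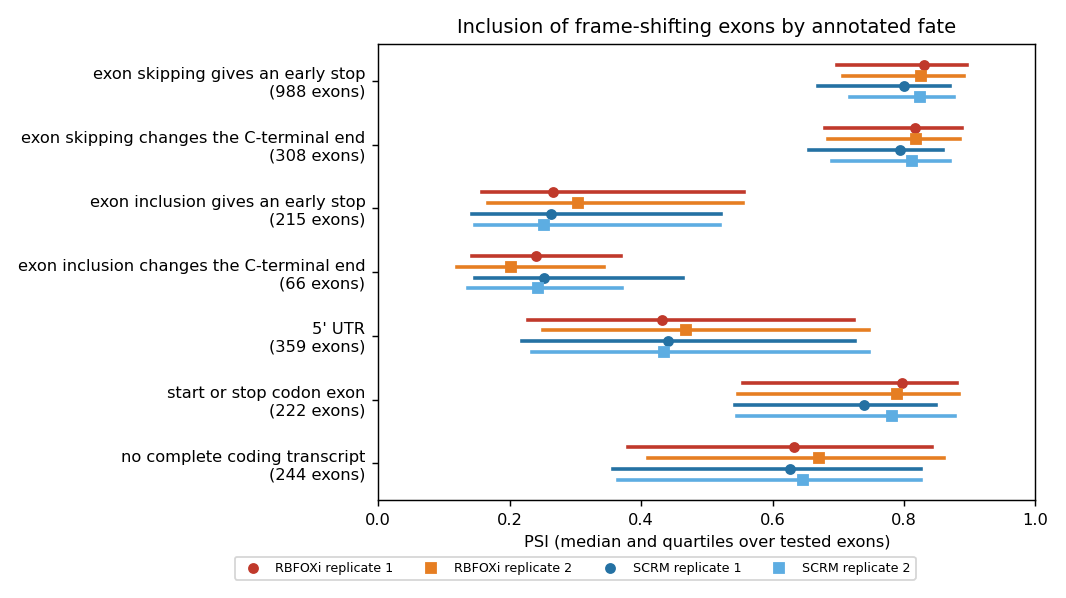
PSI (horizontal axis, 0 to 1) of the tested frame-shifting exons by annotated fate, with the median as a symbol and the quartiles as a line, for each of the 4 libraries. Exons whose skipping gives an early stop have medians of 0.80 to 0.831, and those whose inclusion gives one have medians of 0.253 to 0.304.

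The order of the classes was the same in each of the 4 libraries. In the 988 tested exons whose skipping gives an early stop, the median PSI was 0.831 and 0.826 in the RBFOXi libraries and 0.80 and 0.824 in the SCRM libraries. In the 215 tested exons whose inclusion gives an early stop, it was 0.267 and 0.304 with RBFOXi and 0.262 and 0.253 with SCRM. The median delta PSI of the first class was 0.0166, and 0.00451 without SCRM replicate 1. That of the second was 0.0184, and 0.0143 without SCRM replicate 1. The 66 tested exons whose inclusion changes the C-terminal end had a median delta PSI of -0.00585, and -0.00130 without SCRM replicate 1. High PSI in the skipping class and low PSI in the inclusion classes were also seen in frame-preserving exons. Where skipping changed the C-terminal end, their median SCRM PSI was 0.772 (1466 exons). Where inclusion changed it or gave an early stop, the medians were 0.316 (187 exons) and 0.207 (72 exons). The class of an exon also depends on which form the reference transcript holds.

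Most of the 2441 tested exons moved little between the groups. The median delta PSI was 0.0151, with quartiles of -0.0184 and 0.0480, and 1569 exons (64.3%) moved by less than 0.05. The SD between replicates, pooled over the tested exons, was 0.0627 in the RBFOXi libraries and 0.0839 in the SCRM libraries. The median absolute difference between the replicates was 0.0491 and 0.0613. The frame-preserving exons had a median of 0.00974, and all 39615 tested skipped exon events a median of -5.65e-05. Without SCRM replicate 1 the medians fell to 0.00570, 0.00281 and -0.000759. When the exons were chosen on SCRM replicate 1 alone and the difference taken against SCRM replicate 2, the median was -0.00205, and in the reverse arrangement it was 0.0122.

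**Figure D2:**
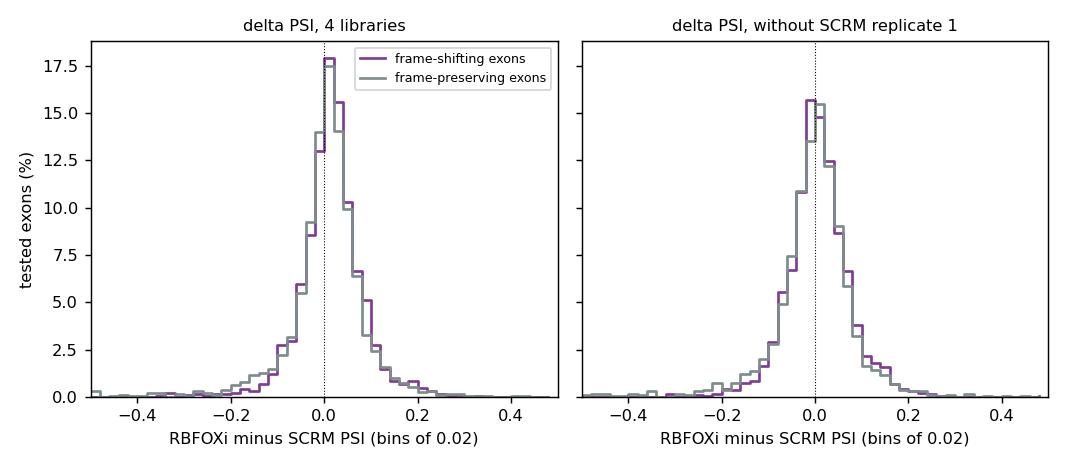
Distribution of delta PSI (RBFOXi minus SCRM, bins of 0.02, horizontal axis) as a percentage of the tested exons (vertical axis), with all 4 libraries on the left and without SCRM replicate 1 on the right. Frame-shifting and frame-preserving exons both peak near 0, with medians of 0.0151 and 0.00974 on the left and of 0.00570 and 0.00281 on the right.

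Both RBFOXi libraries lay below both SCRM libraries in 226 tested frame-shifting exons (9.26%), against 16.5% of all tested events and 13.1% of the frame-preserving exons. They lay above in 474 (19.4%), against 14.3% of all events and 18.4% of the frame-preserving exons. Most tested events in the whole table are near full inclusion, with library medians of 0.979 to 0.983. Restricted to a delta PSI of at least 0.1, 62 of the 2441 frame-shifting exons were lower and 123 higher. Of the 2125 tested frame-preserving exons, 127 were lower and 110 higher, and of all 39615 tested events, 627 and 598. These counts include SCRM replicate 1, whose median PSI over the frame-shifting exons was the lowest. The differences were not tested.

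The limma fit across all events, on the log2 odds of inclusion, called 1 frame-shifting exon lower and 1 higher at an adjusted p under 0.05 where PSI also moved by 0.1 or more. Of all tested events, 0.053% were called lower and 0.0151% higher. The frame-preserving exons held 12 of the 21 events called lower and 3 of the 6 called higher. An unadjusted p under 0.05 was found for 30 frame-shifting exons with lower inclusion (1.23%, against 1.74% of all events and 3.91% of the frame-preserving exons) and for 53 with higher inclusion (2.17%, against 1.87% and 2.64%). Without SCRM replicate 1, where the lone SCRM library is assumed to vary like the RBFOXi libraries, these counts were 26 and 21, and no exon of either kind was called. The difference between the 2 kinds of exon was not tested.

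The exon called lower is the first of the CACNA1A pair. Its PSI was 0.627 and 0.488 in the RBFOXi libraries and 0.90 and 0.871 in the SCRM libraries, on 227 to 456 counts. Both RBFOXi libraries lay well below both SCRM libraries. The mean fell from 0.885 ± 0.0205 to 0.557 ± 0.0986 (SD, n = 2 each), a delta PSI of -0.328 and a log2 odds change of -2.59 (SE 0.43; limma, adjusted p = 0.0498). Without SCRM replicate 1 the delta PSI was -0.313 and the adjusted p in limma 0.723. Without SCRM replicate 2 they were -0.342 and 0.331, and without RBFOXi replicate 2 they were -0.258 and 0.459.

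The second exon of the pair moved in the same direction. Its PSI was 0.416 and 0.256 with RBFOXi and 0.735 and 0.650 with SCRM, a delta PSI of -0.357 (limma, adjusted p = 0.411, not called). Both events take their skipping reads from the junction that joins the outer exons directly. These reads numbered 52 and 157 in the RBFOXi libraries and 13 and 28 in the SCRM libraries, so the 2 values are not independent. Skipping both exons ends the annotated reading frame after 1868 residues, where the form with the first exon has 2508. No UGCAUG lay within 500 nt of either exon on either side.

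The exon called higher is the 37 nt exon of ATP5C1 (ATP5F1C in GENCODE), the gamma subunit of the mitochondrial ATP synthase, at chr10:7848937-7848973. This exon has UGCAUG 129 nt upstream and none within 500 nt downstream. Its PSI was 0.953 and 0.957 with RBFOXi and 0.692 and 0.794 with SCRM (delta PSI 0.212; limma, adjusted p = 0.00244, and 0.358 without SCRM replicate 1 or 0.0684 without SCRM replicate 2).

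In the equal-length pairs, the choice between the 2 exons was read from the table of mutually exclusive exons, as the share of the exon that comes first in the transcript. Of the 2468 exons, 1438 (58.3%) appear in that table. For 684 (27.7%) the table holds a partner whose length leaves the same remainder, so that a swap keeps the frame. Both exons were frame-shifting alternative exons in 366 pairs, of which 168 (45.9%) had equal remainders and 6 had equal lengths. Of the 363 tested pairs none was called by limma, and 9 had an unadjusted p under 0.05. None of the 26176 tested mutually exclusive events was called, and 395 had an unadjusted p under 0.05 in limma.

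The SNAP25 exons agree at 87 of 118 bases (73.7%). The share of the first exon was 0.859 and 0.829 with RBFOXi and 0.657 and 0.693 with SCRM. The groups did not overlap, but the difference of 0.169 was not called (limma, adjusted p = 0.459), and it was 0.151 without SCRM replicate 1. In the skipped exon table, the first exon had PSI 0.840 and 0.620 with RBFOXi and 0.543 and 0.489 with SCRM. The second had 0.120 and 0.114 with RBFOXi and 0.288 and 0.226 with SCRM. Neither difference was called. The skipping reads of the first event numbered 11 and 33 with RBFOXi and 22 and 83 with SCRM. Those of the second numbered 173 and 211 with RBFOXi and 74 and 239 with SCRM. The 2 events thus do not share 1 skipping junction, unlike those of CACNA1A. Skipping reads here can come from use of the other exon, so these PSI values are not separate from the share.

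The CACNA1A exons agree at 60 of 97 bases (61.9%). The share of the first was 0.703 and 0.735 with RBFOXi and 0.765 and 0.784 with SCRM, a difference of -0.0557. Skipping of both exons against the first thus differed more between the groups than the choice between the exons, which is a statement on 2 values of delta PSI and was not tested. The U2AF1 exons agree at 44 of 67 bases (65.7%). The first had a share of 0.218 and 0.245 with RBFOXi and of 0.158 and 0.259 with SCRM, and the groups overlapped.

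The pair with most counts, 153333, was in CALU, which encodes the calcium-binding protein calumenin of the secretory pathway. Both exons have 194 nt and agree at 127 bases (65.5%). The share of the first was 0.680 and 0.661 with RBFOXi and 0.649 and 0.652 with SCRM, a difference of 0.0202. The pair of YPEL5 (61 nt) overlapped between groups. The other pairs among those with most counts differ in length. EIF3M, a subunit of the translation initiation factor eIF3, had exons of 133 and 124 nt with a difference of 0.0384, and SDHAF2, an assembly factor of succinate dehydrogenase, exons of 224 and 110 nt with 0.0233. PIGT, part of the enzyme complex that attaches GPI anchors, had a first exon of 178 or 148 nt and a second of 128 nt, with differences of 0.0276 and 0.0327. Without SCRM replicate 1 these 4 differences were -0.00132, -0.00334, -0.00682 and -0.000234.

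**Figure D3:**
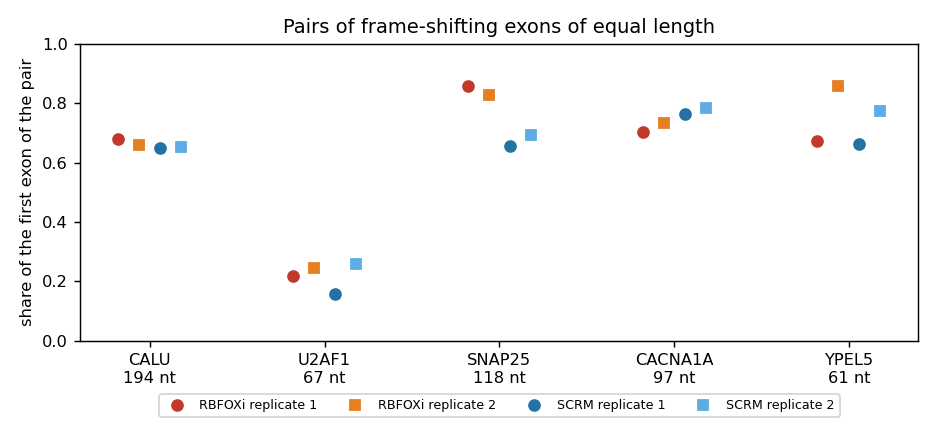
Share of the exon that comes first in the transcript (vertical axis, 0 to 1) in each of the 4 libraries, for 5 pairs of frame-shifting exons of equal length, ordered by counts. In SNAP25 the RBFOXi libraries lie at 0.859 and 0.829, above the SCRM libraries at 0.657 and 0.693. In CACNA1A they lie at 0.703 and 0.735, below 0.765 and 0.784.

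Beyond the called exons, the largest falls with at least 20 counts in every library and no overlap of the groups were in CAMKK2, IQSEC1, PLXNB3, TAF1C, CTC1 and ZNF778, together with the CACNA1A exons above. None of these 6 exons was called. CAMKK2 encodes a calcium/calmodulin-dependent kinase kinase. Its 43 nt exon had PSI 0.110 and 0.0755 with RBFOXi and 0.483 and 0.251 with SCRM (limma, adjusted p = 0.367). The fall was -0.274, and -0.159 without SCRM replicate 1. IQSEC1 encodes an exchange factor for ARF GTPases. Its 50 nt exon had PSI 0.399 and 0.429 with RBFOXi and 0.636 and 0.733 with SCRM (limma, adjusted p = 0.954). The fall was -0.271, and -0.319 without SCRM replicate 1. Skipping shortens the reading of CAMKK2 from 588 to 541 residues and that of IQSEC1 from 1114 to 922.

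The CAMKK2 exon is shown with its downstream flank because the RBFOX motif, in capitals here and with T for U, lies near it. The CAMKK2 run is chr12:121682170-121682418 on the minus strand of hg19 and starts with the 43 nt exon. The motif begins 196 nt into the downstream intron.
CAMKK2: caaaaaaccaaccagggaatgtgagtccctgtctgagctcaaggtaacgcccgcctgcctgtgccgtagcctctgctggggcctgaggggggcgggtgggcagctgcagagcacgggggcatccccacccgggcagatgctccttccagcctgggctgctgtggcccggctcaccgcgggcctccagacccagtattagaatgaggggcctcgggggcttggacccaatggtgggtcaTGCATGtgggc

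The other 4 falls rested on 20 to 179 counts per library. PLXNB3, a plexin receptor, had PSI 0.472 and 0.670 with RBFOXi and 1.000 and 0.703 with SCRM, and ZNF778, a zinc finger protein, 0.668 and 0.654 against 1.000 and 0.755. In both, SCRM replicate 1 gave only inclusion reads, 29 and 20 of them, and without it the falls were -0.132 and -0.0940 in place of -0.281 and -0.217. TAF1C, a subunit of the RNA polymerase I factor SL1, had 0.321 and 0.476 against 0.662 and 0.645. CTC1, which acts at telomeres, had 0.525 and 0.762 against 0.873 and 0.870, on 16 and 8 against 4 and 4 skipping reads. These last 2 moved by -0.254 and -0.228, and by -0.246 and -0.226 without SCRM replicate 1.

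Among the largest rises after ATP5C1, none of the exons was called. FAM193B had 2 overlapping exons that share an end, of 179 and 248 nt. Both have the same skipping reads, 16 and 42 with RBFOXi and 39 and 32 with SCRM, so their values are not independent. The shorter had PSI 0.628 and 0.566 with RBFOXi and 0.341 and 0.349 with SCRM, and the longer 0.655 and 0.601 against 0.350 and 0.430. Inclusion of either gives an early stop. For the exon of 179 nt, the stop codon begins at nt 91 of the exon, and it is shown in capitals with its surroundings, chr5:176959028-176959054 on the minus strand of hg19.
FAM193B: agggacaggccgTGAgcacagacggcg

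CKB, the brain type creatine kinase, had PSI 0.916 and 0.725 with RBFOXi and 0.630 and 0.583 with SCRM for its 124 nt exon, on 46 to 122 counts. The rise of 0.214 was 0.238 without SCRM replicate 1. Skipping reads of the CKB exon numbered 3 and 8 with RBFOXi and 25 and 11 with SCRM. The rises of ZBTB25 and TCTN1 rested in part on SCRM replicate 1. Their delta PSI was 0.236 and 0.221 with it, and 0.0905 and 0.111 without it. TCTN1 acts at the transition zone of the cilium. Skipping reads of its exon were few, 1 and 0 with RBFOXi and 7 and 2 with SCRM.

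**Figure D4:**
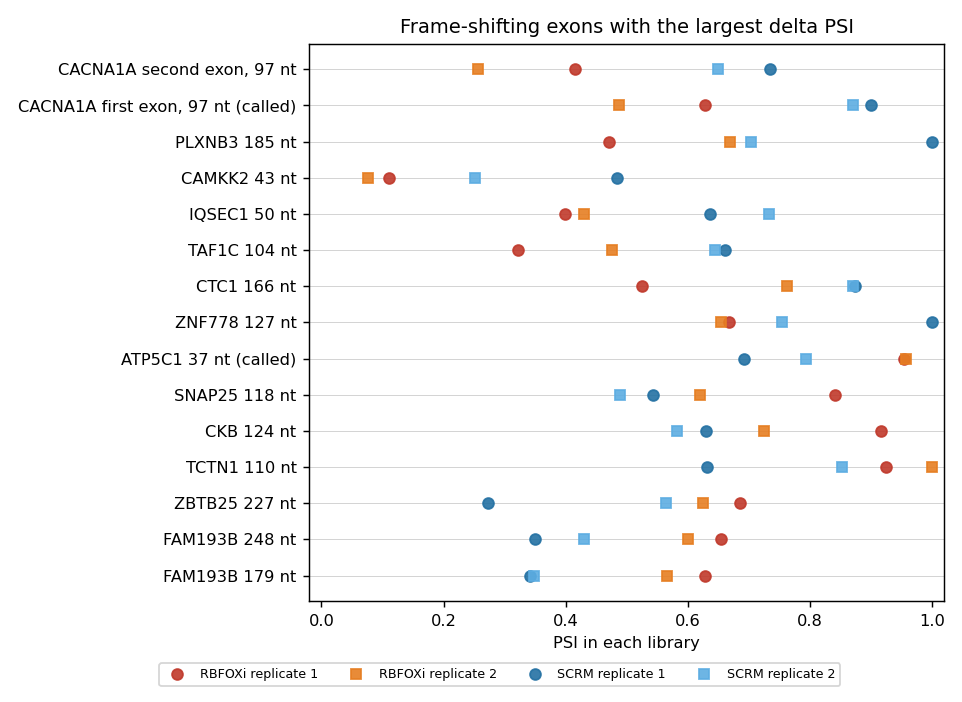
PSI (horizontal axis) in each library for the frame-shifting exons with the 8 largest falls and 7 of the 8 largest rises among those with at least 20 counts in every library and no overlap between groups, ordered by delta PSI from CACNA1A (-0.357) to FAM193B (0.252). RBFOXi libraries are red and orange and SCRM libraries are blue. In PLXNB3 and ZNF778, SCRM replicate 1 lies at 1.000.

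For the counts that follow, UGCAUG was searched on the strand of the gene in the 300 nt of intron next to each side of the exon. It was present downstream of 207 frame-shifting exons (8.39%), 9.95% of the frame-preserving exons and 8.41% of all tested events. Upstream it was present beside 9.12%, 10.3% and 8.41%. Either side held it for 416 frame-shifting exons (16.9%).

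Exons with a downstream UGCAUG were lower with RBFOXi more often than those without. Of the 200 tested frame-shifting exons with it, 38 (19.0%) had both RBFOXi libraries below both SCRM libraries, against 8.39% of those without it. Among frame-preserving exons the shares were 38.4% and 10.3%, and among all tested events 22.7% and 15.9%. Both RBFOXi libraries were above in 26 frame-shifting exons with it (13.0%), against 19.99% without it. The median delta PSI of frame-shifting exons was 0.00317 with the motif and 0.0164 without, and -0.00861 and 0.00697 without SCRM replicate 1. In frame-preserving exons it was -0.0269 with the motif and 0.0124 without. For an upstream motif, the medians of the frame-shifting exons were 0.0160 with it and 0.0147 without. Leaving out SCRM replicate 1, they were 0.0120 and 0.00495. Both RBFOXi libraries were below in 6.73% with an upstream motif and 9.51% without, and above in 20.2% and 19.3%. These are counts and medians with no test.

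**Figure D5:**
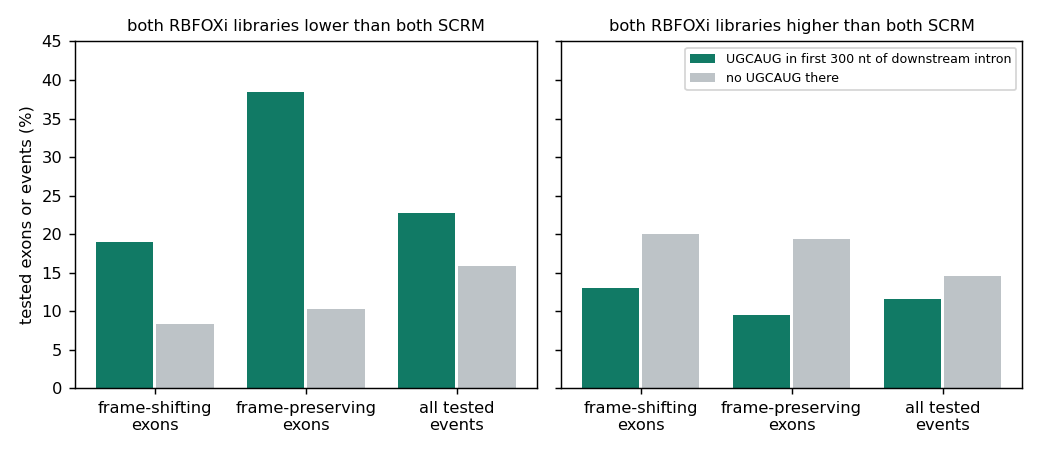
Percentage of tested exons or events (vertical axis) in which both RBFOXi libraries lay below (left) or above (right) both SCRM libraries, with UGCAUG within 300 nt past the exon (green) or without it (grey). On the left the bars are 19.0% and 8.39% for frame-shifting exons, 38.4% and 10.3% for frame-preserving exons, and 22.7% and 15.9% for all tested events.

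Of the 30 frame-shifting exons with an unadjusted p under 0.05 and lower inclusion, 13 (43.3%) had a downstream UGCAUG, against 5 of the 53 with higher inclusion (9.43%). For frame-preserving exons the shares were 53.01% and 10.7%, and for all tested events 23.8% and 8.09%. Without SCRM replicate 1, 14 of 26 lower and 2 of 21 higher frame-shifting exons had it. The genes named next were chosen after their values were seen, and none of their exons was called.

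Several of the 13 change the C-terminal end of the protein when included. NF2 encodes the tumour suppressor merlin, and its 86 nt exon had PSI 0.155 and 0.0670 with RBFOXi and 0.302 and 0.240 with SCRM. NDEL1 acts with dynein, and its 35 nt exon had 0.319 and 0.234 against 0.386 and 0.460. CCSER2 (85 nt) had 0.167 and 0.0598 against 0.280 and 0.242. An exon of 49 nt listed as AF258560 lies in ARHGAP17 of GENCODE and had 0.400 and 0.338 against 0.560 and 0.486. NRG1 encodes neuregulin, a ligand of ERBB receptors, and its 142 nt exon had 0.103 and 0.120 against 0.220 and 0.183. In these 5 exons each RBFOXi library lay below both SCRM libraries, which follows largely from their choice by unadjusted p and lower inclusion. The share was 9.26% of all tested frame-shifting exons and 16.5% of all tested events. The class of 67 exons whose inclusion changes the C-terminal end had a downstream UGCAUG in 16 (23.9%), the largest share of the 4 classes read in both forms, which ranged from 7.83% upward.

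Others of the 13 lie elsewhere in the gene. The MFF exon of 112 nt lay in the 5′ UTR of its coding transcripts and had PSI 0.777 and 0.618 with RBFOXi and 0.862 and 0.893 with SCRM. MFF is a receptor for the mitochondrial fission GTPase DRP1. EIF4A2, an RNA helicase of translation initiation, had 0.530 and 0.614 against 0.666 and 0.753 for its 140 nt exon, whose skipping ends the reading after 96 of 407 residues. In PCNX (PCNX1 in GENCODE), a delta PSI of -0.428 rested on SCRM replicate 1, which had 12 counts and no skipping read. Without it the value was -0.0839.

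The lists of genes gave few calls. The 2 exons of SR protein and TRA2 genes were not called. The SRSF6 exon of 268 nt, whose inclusion gives an early stop, had PSI 0.238 and 0.394 with RBFOXi and 0.282 and 0.248 with SCRM. The TRA2A exon of 301 nt, in the annotated 5′ UTR, had 0.852 and 0.911 against 0.764 and 0.744. Among 25 exons in 18 genes of hnRNPs and other splicing regulators, 3 were lower and 4 higher without overlap and none was called, where 9.26% of all tested frame-shifting exons were lower and 19.4% higher, and 16.5% and 14.3% of all events. Their median delta PSI was 0.0154, and -0.00122 without SCRM replicate 1. The exons with most counts overlapped between groups. HNRNPR (166 nt) had 0.216 and 0.247 against 0.218 and 0.257, SYNCRIP (160 nt) 0.869 and 0.893 against 0.849 and 0.882, and U2AF1 (the first 67 nt exon) 0.176 and 0.213 against 0.123 and 0.201.

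Nonsense-mediated decay and exon junction genes held 2 exons, both overlapping between groups and neither called. RNPS1, a protein of the exon junction region, had PSI 0.552 and 0.530 with RBFOXi and 0.598 and 0.542 with SCRM for its 188 nt exon. Inclusion of this exon places a stop codon at nt 77 of it, after 26 residues. The stop codon is shown in capitals, chr16:2314671-2314697 on the minus strand of hg19.
RNPS1: agttcagataagTGAggccgccattgc

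The 11 exons of apoptosis and p53 genes had a median delta PSI of 0.0253, and 0.0148 without SCRM replicate 1. None was called, 5 were higher without overlap and none lower, beside 19.4% and 9.26% of all tested frame-shifting exons and 14.3% and 16.5% of all events. BID, which links death receptors to mitochondria, had exons of 211 nt (0.580 and 0.598 against 0.486 and 0.574) and 70 nt (0.875 and 0.911 against 0.878 and 0.918). BCL2L12 had 0.782 and 0.789 against 0.762 and 0.758 for its 143 nt exon. Of 17 exons of oxidative phosphorylation genes, 16 were tested. ATP5C1 alone was called, and the median delta PSI was 0.0265, and -0.00334 without SCRM replicate 1. Of those with most counts, NDUFA8 of complex I had 0.895 and 0.904 against 0.864 and 0.9001, and ATP5I of ATP synthase 0.832 and 0.842 against 0.881 and 0.842. The matching by symbol also placed SDHAF2 in this list, with 0.8002 and 0.809 against 0.703 and 0.838 for its 224 nt exon.

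Among 37 exons of DNA repair and checkpoint genes, 3 were lower and 8 higher without overlap, beside 9.26% and 19.4% of all tested frame-shifting exons and 16.5% and 14.3% of all events. None was called, with a median delta PSI of 0.0160, and -0.00205 without SCRM replicate 1. CHEK1 (224 nt) had 0.888 and 0.874 against 0.844 and 0.877, DDB2 (178 nt) 0.930 and 0.820 against 0.922 and 0.871, and FANCA (139 nt) 0.891 and 0.887 against 0.850 and 0.933. The largest value in the list was that of a 110 nt BLM exon, named after its values were seen. Its delta PSI of -0.326 rested on SCRM replicate 1, with PSI 0.688 on 17 counts, and was -0.0313 without it.

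The list of genes known for RBFOX-regulated exons was chosen with results of these libraries known, so it is no independent evidence of direction. It held 13 exons, of which 5 were lower and 4 higher without overlap, beside 16.5% and 14.3% of all tested events. The CACNA1A and ATP5C1 calls are among them, where 0.053% of all events were called lower and 0.0151% higher. The list of textbook frame-shifting exons held 10 exons in 6 genes, which are the 2 exons each of CACNA1A, SNAP25, U2AF1 and TPM1 and 1 each of ATP5C1 and TRA2A. The TPM1 (tropomyosin) exons of 79 and 127 nt overlapped between groups, with 0.444 and 0.488 against 0.445 and 0.613, and 0.428 and 0.394 against 0.309 and 0.491.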

How the data were processed

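The analysis started from the tables of skipped and mutually exclusive exons for U87MG cells, 2 libraries with RBFOXi and 2 with SCRM. Per the labels and methods, the authors kept uniquely placed reads from STAR 2.4.2a on hg19. They used rMATS with UCSC known genes to count reads for each event. For each library the deposited tables give raw read counts of the inclusion form and of the skipping form, without normalization, together with an effective length per form. The authors' p-values, FDR and inclusion differences were not used, nor were the tables of alternative splice sites and retained introns. Reads that fit several events are counted in each, so counts are not distinct molecules.

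The frame-shifting exons and all gene lists were chosen with earlier results of these data known. Where several events held an exon, the one with most counts was kept. An event entered the fit if no library had under 5 counts, the mean was 20 or more and each form had 4 counts in all. The fit used limma 3.58.1 (R 4.3.3) on the log2 odds of inclusion (pseudocount 0.5), with the variance trend on the log2 of the mean information of the counts, condition only, and Benjamini-Hochberg adjustment over all 39615 skipped exon events. The p-values measure the spread between libraries described as independent biological replicates. The fit was tested on simulated data. Introns and exons were read from GRCh37 (hg19), and transcripts from the GENCODE 44 annotation on that build. In the mutually exclusive table the inclusion form was taken as the exon that comes first in the transcript. This was checked on pairs whose skipped exon PSI differed by over 0.3, where the inclusion form matched the exon of lower coordinate in 40 of 48 pairs on the plus strand and in 5 of 34 on the minus strand. Same-numbered libraries deviated together with a correlation of 0.0944 over events, and the labels do not say what the numbers share.

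The exons named were those called, the 8 largest falls and 8 largest rises with at least 20 counts in every library and no overlap, all exons of the SR protein, decay and textbook lists, the 3 with most counts of each other list, those next to the PSI bounds, and the 6 pairs with most counts. A few of the exons, pairs and sequences that this rule takes in are not reported here. Python 3.11.15, numpy 2.4.6, pandas 2.3.3 and matplotlib 3.10.9 were used. Alternatives covered the pseudocount, count filter, test, block, delta PSI minimum, PSI definition, the rule's bounds, each library left out, the motif window and the transcript match.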

Additional observations from a re-analysis of the deposited data

How the results depend on the processing

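The 2 called frame-shifting exons were the least stable result. Their number was 2 with a pseudocount of 1, a filter of 1 count, 1 event per exon and a delta PSI minimum of 0.05 or 0.2, and 0 with a pseudocount of 0.1, where limma called 1 event in the whole table and 52 of the exons had an unadjusted p under 0.05. With a filter of 20 counts it was 1. Leaving out 1 library gave 0 to 10 calls, with 0 in limma when either SCRM library was left out (47 exons at an unadjusted p under 0.05 without replicate 1 and 184 without replicate 2) and 10 without RBFOXi replicate 1. In these fits the lone library is assumed to vary like the other group. Fisher's exact test on summed counts, which ignores the spread between replicates, called 60 (23 lower). A quasi-binomial F test, chosen after seeing the data in place of a planned negative-binomial model, which was not run because the table packs 2 counts into each cell, called 27 (14 lower). A variance trend on the mean of the log2 information, also chosen after seeing the data, called 2. Fitted with a block for the replicate number, the count was 17 (12 lower), and CACNA1A and ATP5C1 were called with an adjusted p in limma of 5.03e-06 and 1.39e-11. The frame-preserving exons had more calls than the frame-shifting exons in every fit that called an exon of either kind. The median delta PSI ranged from -0.00205 to 0.0232 over the alternatives, and it was 0.00879 with the plain share of inclusion counts. Leaving out 1 library moved it between 0.00570 and 0.0232. UGCAUG beside the exon was found for 307 exons in 200 nt and 604 in 500 nt, and GCAUG in 300 nt for 1035. Requiring both junctions of a form in 1 transcript left 897 exons with an early stop in one form. Depth limits exons with few counts in SCRM replicate 1, such as that of PCNX with 12 counts.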
